A study of Mus musculus with 18 samples.

Results

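The troponin genes encode the calcium switch of striated muscle, and they were followed across 6 conditions of mouse ESD3 cells on Illumina MouseWG-6 v2 arrays. The family has 8 genes by name (Tnnc1, Tnnc2, Tnni1, Tnni2, Tnni3, Tnnt1, Tnnt2 and Tnnt3), and its members were taken as every probe whose annotated symbol is one of these names. This found 7 probes among the 45281 on the array, a single probe for each of 7 genes, of 30869 symbols in all. Tnnt2, the cardiac troponin T gene, was not analysed here. The family was chosen by its signals at the neuronal stage, where Tnnc2 had one of the largest differences between knockdown and control cells, so every comparison that uses neuronal arrays is given as a description with no test.

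ESD3 is a line of embryonic stem (ES) cells from mouse strain 129s2/SvPas. The labels give the control cells an shRNA against luciferase and the knockdown cells an shRNA against HPRT, the purine salvage enzyme, both carried by a retrovirus (a lentivirus in the study's methods). Both cell types were sampled as ES cells, as spherical neural masses (SNM), and as neurons at the end of a dopaminergic differentiation protocol, and the ES cultures grew on primary mouse embryo fibroblasts. Each of these 6 conditions has 3 arrays, hybridised from a pool of RNA of replicate cultures, so an SD or a p-value here covers the error of the arrays and not the spread between cultures. Between 18827 and 22202 probes were detected on an array, and arrays of a condition correlated between 0.992 and 0.997. Hprt1, as the array names Hprt, was 94.1% lower in knockdown than in control cells at the ES stage, 70.5% lower at the SNM stage and 95.4% lower at the neuronal stage.

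A troponin complex has 3 subunits that sit together on the thin filament. Troponin C binds calcium, troponin I blocks the interaction of actin with myosin until calcium arrives, and troponin T fastens the complex to tropomyosin. Fast skeletal fibres use Tnnc2, Tnni2 and Tnnt3. Slow skeletal fibres use Tnnc1, Tnni1 and Tnnt1, and adult heart uses Tnnc1, Tnni3 and Tnnt2. Neurons have no sarcomeres, and these genes are best known as markers of muscle.

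Several of the genes lie in pairs. By the RefSeq annotation of GRCm38.p6, no protein-coding gene separates Tnnt1 from Tnni3 on chromosome 7, and 1 gene, Lsp1, separates Tnni2 from Tnnt3 on the same chromosome. Tnni1 and Tnnt2 lie on chromosome 1 with 1 gene, Lad1, between them. Tnnc2 is on chromosome 2 and Tnnc1 on chromosome 14. RefSeq promoter windows of build GRCm38.p6 were matched to 6 of the 8 genes, and to 5 of the 7 with a probe. The 250 bases before the start of 4 genes are shown, because 3 of them (Tnnc2, Tnnc1 and Tnni1) were among each other's 100 nearest probes in signal across the 6 conditions and the fourth (Tnnt1) was not. They lie at chr2:164779735-164779984 on the minus strand, chr14:31208062-31208311 on the plus strand, chr1:135799171-135799420 on the plus strand (the first of 2 annotated starts) and chr7:4515976-4516225 on the minus strand. Each runs 5′ to 3′ along its gene, and capitals mark the E-box CANNTG, which myogenic bHLH factors bind, and CATTCC on either strand, the M-CAT element.
Tnnc2: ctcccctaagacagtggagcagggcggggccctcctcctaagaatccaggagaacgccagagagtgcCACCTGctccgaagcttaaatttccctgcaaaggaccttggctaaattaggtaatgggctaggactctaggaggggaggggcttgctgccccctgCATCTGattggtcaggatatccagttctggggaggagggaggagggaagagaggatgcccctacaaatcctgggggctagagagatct
Tnnc1: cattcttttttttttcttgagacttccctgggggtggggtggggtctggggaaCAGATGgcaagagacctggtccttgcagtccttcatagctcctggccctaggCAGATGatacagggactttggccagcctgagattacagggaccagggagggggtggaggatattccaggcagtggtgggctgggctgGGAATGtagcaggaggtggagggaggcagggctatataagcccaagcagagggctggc
Tnni1: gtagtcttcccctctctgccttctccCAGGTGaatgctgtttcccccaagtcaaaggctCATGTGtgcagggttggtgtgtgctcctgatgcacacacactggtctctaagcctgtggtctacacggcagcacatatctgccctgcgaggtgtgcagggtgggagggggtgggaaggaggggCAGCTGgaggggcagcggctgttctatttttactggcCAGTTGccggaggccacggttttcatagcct
Tnnt1: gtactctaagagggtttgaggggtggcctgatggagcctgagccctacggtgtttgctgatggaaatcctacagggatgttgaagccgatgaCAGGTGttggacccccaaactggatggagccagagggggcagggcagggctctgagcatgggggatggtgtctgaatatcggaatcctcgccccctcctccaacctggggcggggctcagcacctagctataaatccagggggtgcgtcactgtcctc
An E-box was in every one of these windows, 2 times for Tnnc2, 2 times for Tnnc1, 4 times for Tnni1 and 1 time for Tnnt1, but 66.2% of the 32851 promoter windows of this length hold one. The form CAGCTG was found in the window of Tnni1 and in 13% of all windows. CATTCC was found in the window of Tnnc1 and in 12.6% of all windows. TATAAA was found in the window of Tnnt1, 30 bases before the start, and in 12.4% of all windows. Variants of this string were not searched, and the window of Tnnc1 holds a similar one, tatataag, near its end. The MEF2 element and the CArG box, searched on both strands, matched none of the 4 windows, and matched 2.9% and 1.5% of all windows.

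Signals are the deposited bead averages, in arbitrary units of brightness, and a detection p-value under 0.05 counted as detected. Differences are on the log2 scale after background correction and normalization. Signals of different genes come from different probes and are not compared with each other.

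**Figure D1:**
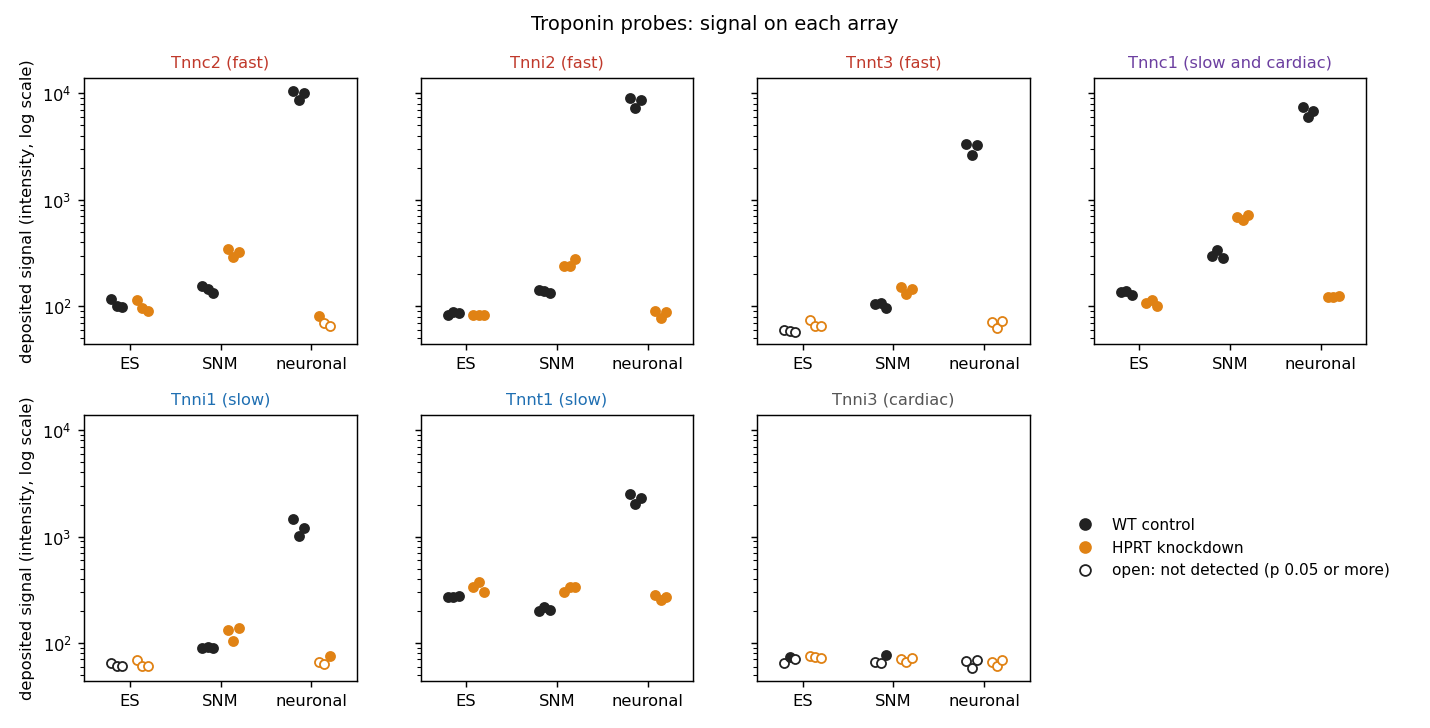
Deposited signal of each troponin probe on each of the 18 arrays (log scale), by stage, with WT control arrays in black, HPRT-knockdown arrays in orange and open circles where the probe was not detected; heights are comparable within a panel and not between panels. Control arrays of the neuronal stage stand far above all others for 6 probes, and Tnni3 stays between 58.5 and 77.0 throughout.

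At the ES stage Tnni1 and Tnnt3 were below detection, Tnnt1 was detected on all arrays with signals of 269 to 376, and 1 probe, Tnnc1, passed the call rule between knockdown and control cells. Of the 7 probes, 4 could be tested, and 1 fell and 0 rose in knockdown cells, where 1.68% of the 18411 probes tested were called, 0.516% higher and 1.17% lower. The median difference of the 4 was -0.14, beside 0.01 over all probes tested. Tnnc1, the calcium-binding subunit of slow fibres and heart, read 135, 138 and 127 on the control arrays and 108, 114 and 100.2 on the knockdown arrays. No array of one set reached the other, as for 31.6% of all probes tested, and Tnnc1 fell by 0.61 (SE 0.08, limma adjusted p = 0.000206). This is just past the 1.5-fold minimum, and the difference was -0.51 without control array 2 and between -0.31 and -0.43 without background correction or with a larger offset, which ended the call.

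Tnnt1, which anchors the complex in slow fibres, read 270.0, 269 and 277 on the control arrays and 334, 376 and 303 on the knockdown arrays at the ES stage. Its difference of 0.25 (SE 0.08) missed the threshold (limma adjusted p = 0.0561), although every knockdown array was above every control array. Among the fast-fibre genes, Tnnc2 read 118, 99.9 and 97.6 against 114, 97.1 and 91.3, and Tnni2 read 82.4, 88.5 and 86.8 against 83.3, 82.7 and 83.4. The arrays of Tnnc2 and of Tnni2 overlapped between the cell types, with differences of -0.16 (SE 0.19, limma adjusted p = 0.655) and -0.13 (SE 0.13, limma adjusted p = 0.593). Tnni1 and Tnnt3 were detected on no ES array, with signals of 60.2 to 69.3 and 57.2 to 73.9.

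At the SNM stage every troponin probe that could be tested was higher in knockdown than in control cells. All 6 probes tested were called higher, where 19.9% of the 20765 probes tested were called, 11% higher and 8.9% lower. Their differences ran from 0.66 to 1.48 with a median of 0.95, beside a median of -0.04 over all probes tested. No control array overlapped a knockdown array in any of the 6, which was so for 56.1% of all probes tested.

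Troponin C showed the largest differences of the family at the SNM stage. Tnnc2, the fast-fibre calcium sensor, read 154, 146 and 132 on the control arrays and 342, 292 and 326 on the knockdown arrays. It rose 2.80-fold (log2 difference 1.48, SE 0.19, limma adjusted p = 7.72e-06). Tnnc1 read 299, 337 and 284 on the control arrays and 697, 647 and 718 on the knockdown arrays. It rose 2.56-fold (1.36, SE 0.08, limma adjusted p = 1.32e-09), so the gene that was lower in knockdown ES cells was higher in knockdown SNM.

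Of the inhibitory subunits at the SNM stage, the fast-fibre gene Tnni2 read 143, 139 and 132 on the control arrays and 237, 237 and 276 on the knockdown arrays. It rose 2.17-fold (1.12, SE 0.13, limma adjusted p = 2.16e-06). The slow-fibre gene Tnni1 read 89.0, 92.4 and 89.1 against 134, 105 and 138, and rose 1.66-fold (0.73, SE 0.11, limma adjusted p = 4.93e-05). The cardiac gene Tnni3 read 65.9, 65.2 and 77.0 against 70.4, 66.2 and 72.7. It was detected on 1 control array and no knockdown array, and was not tested.

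Of the tropomyosin-binding subunits, Tnnt1 read 200.3, 219 and 204 on the control SNM arrays and 302, 336 and 334 on the knockdown SNM arrays, and rose 1.71-fold (0.78, SE 0.08, limma adjusted p = 6.28e-07). The fast-fibre gene Tnnt3 read 106, 108 and 96.7 against 152, 129 and 145, and rose 1.58-fold (0.66, SE 0.10, limma adjusted p = 5.36e-05). Tnni1 and Tnnt3, the dimmest of the 6, were under the 1.5-fold minimum with each of 4 other ways of correcting or scaling the signals (0.38 to 0.47 for Tnni1 and 0.38 to 0.45 for Tnnt3), and Tnnt3 also without control array 3 (0.53) or without knockdown array 1 (0.57). Fewer cells of a type and less RNA per cell cannot be told apart in RNA from whole cultures, here or in any comparison that follows.

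**Figure D2:**
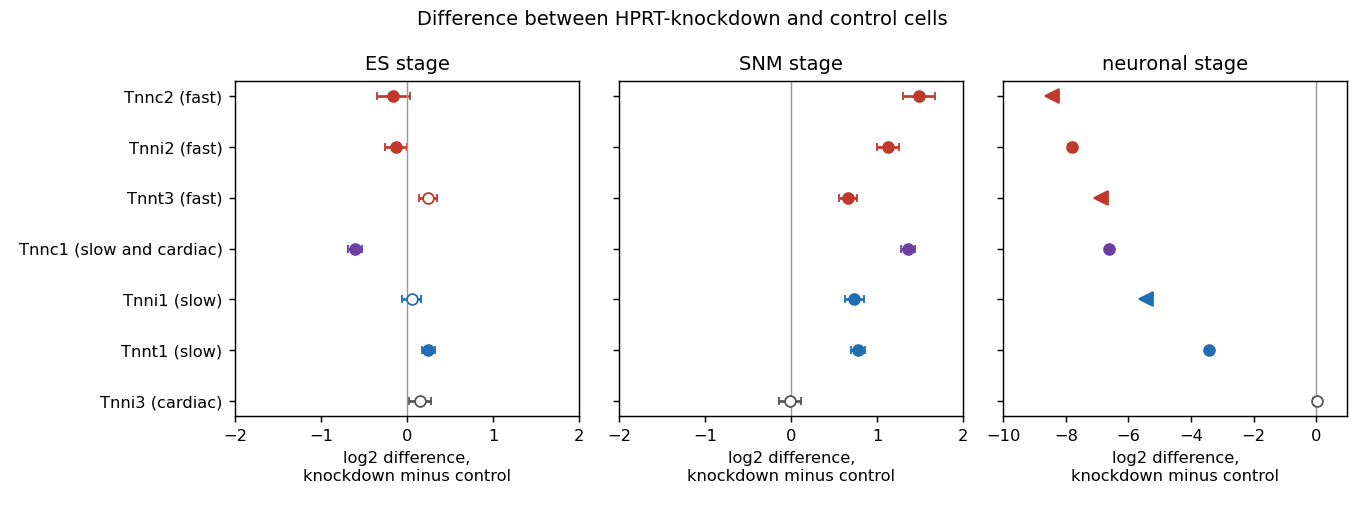
Log2 difference between knockdown and control cells of each troponin probe at the 3 stages, with the SE as bars; filled points were detected well enough to be tested, open points were not, and triangles give the bound of probes below detection in knockdown neuronal cultures, which may lie further left. The neuronal panel has a wider axis; the 6 detected probes lie right of 0 at the SNM stage and between -8.43 and -3.42 at the neuronal stage.

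The knockdown effect on troponin genes therefore differed between the ES and SNM stages, and this difference was tested itself. It passed the call rule for 4 of 6 probes, all in the direction of a higher effect at the SNM stage, where 21.3% of the 22125 probes tested were called, 11.7% higher and 9.61% lower. It was 1.96 (SE 0.11, limma adjusted p = 2.76e-09) for Tnnc1, 1.64 (SE 0.27, limma adjusted p = 0.000158) for Tnnc2 and 1.24 (SE 0.18, limma adjusted p = 5.03e-05) for Tnni2. For Tnni1 it was 0.68 (SE 0.16, limma adjusted p = 0.00296), which did not keep the 1.5-fold minimum with the same 4 settings (0.32 to 0.44). Tnnt1 and Tnnt3 had differences of 0.53 and 0.41 with limma adjusted p-values of 0.00133 and 0.0308, both under the 1.5-fold minimum. Tnni1 and Tnnt3 were below detection in both ES conditions, so their ES values are background. The median of the 6 was 0.96, beside -0.05 over all probes tested.

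Between the ES and SNM stages 4 of the 7 troponin probes rose and Tnnt1 fell in control cells, and 5 rose in knockdown cells. Tnni3 could not be tested in either. Tnni1 and Tnnt3 entered both comparisons through the SNM arrays alone, so a rise was the only outcome open to them. In control cells 5 of 6 probes tested were called, 4 higher and 1 lower, where 49.1% of the 20703 probes tested were called, 23.7% higher and 25.4% lower. In knockdown cells 5 of 6 were called, all higher, where 57.3% of the 21467 probes tested were called, 26.4% higher and 30.9% lower. Tnnc1 rose by 1.19 (SE 0.08, limma adjusted p = 1.12e-09) in control cells and by 3.15 (SE 0.08, limma adjusted p = 3.31e-15) in knockdown cells. Tnni2 rose by 0.99 (SE 0.13, limma adjusted p = 2.68e-06) and 2.24 (SE 0.13, limma adjusted p = 8.70e-11). Tnnc2 rose in knockdown cells by 2.04 (SE 0.19, limma adjusted p = 4.79e-08), and its difference of 0.40 (SE 0.19) in control cells missed the threshold (limma adjusted p = 0.0699).

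Tnni1 and Tnnt3 were below detection in ES cells, so their changes to the SNM stage are bounds, and no p-value is given for them. Tnni1 was at least 1.39-fold higher in control SNM and at least 2.21-fold higher in knockdown SNM. The bound in control cells is under the 1.5-fold minimum, and its call there rests on the fitted difference of 1.04. Tnnt3 was at least 1.81-fold higher in control SNM and at least 2.73-fold higher in knockdown SNM. Tnnt1 went the other way and fell by 0.87 (SE 0.08, limma adjusted p = 4.67e-08) in control cells. Its difference in knockdown cells was -0.34 (SE 0.08, limma adjusted p = 0.000980), under the 1.5-fold minimum. Without background correction the count in control cells was 2 or 3 of 6, and without scaling the difference of Tnnt1 in control cells was -0.39, under the minimum.

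At the neuronal stage the control cultures held by far the brightest troponin signals of the series, and in knockdown cultures 3 of the 7 probes (Tnnc1, Tnni2 and Tnnt1) were detected on all arrays. All 6 detected probes were lower in knockdown cells past the call rule, which 27.4% of the 20893 probes met, 13.9% in the higher and 13.5% in the lower direction. These values chose the family and nothing is read from the count. Their median difference was -6.83, or -6.75 with the probes below detection at their bounds. Over all probes that could be tested it was 0.01.

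Of the fast-fibre genes at the neuronal stage, Tnnc2 read 10648, 8654 and 10088 on the control arrays and 81.5, 69.6 and 64.8 on the knockdown arrays. It was detected on 1 of the 3 knockdown arrays and was at least 346-fold lower there. Tnni2 read 9083, 7338 and 8634 against 90.3, 78.3 and 89.0. It was detected on all knockdown arrays and was 225-fold lower (log2 difference -7.81, SE 0.13). Tnnt3 read 3379, 2625 and 3309.5 against 71.9, 63.2 and 72.6, was detected on 0 of 3 knockdown arrays, and was at least 118-fold lower. These folds and bounds hold for the background correction used. With 75th percentile scaling and no background correction the log2 differences were -7.06 for Tnnc2, -6.57 for Tnni2 and -5.45 for Tnnt3, the smallest of the alternatives.

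Of the genes shared by slow fibres, Tnnc1 read 7403, 6066 and 6871 on the control neuronal arrays and 122, 123 and 125 on the knockdown neuronal arrays, 97.8-fold lower (-6.61, SE 0.08). Tnni1 read 1473, 1014 and 1204 against 66.0, 63.4 and 75.9, was detected on 1 of 3 knockdown arrays, and was at least 43.7-fold lower. Tnnt1 read 2534, 2007 and 2281 against 283, 253 and 269.6, and was 10.7-fold lower (-3.42, SE 0.08). With 75th percentile scaling and no background correction the differences were -5.74 for Tnnc1, -4.12 for Tnni1 and -3.04 for Tnnt1. For each of these 6 probes all control arrays were above all knockdown arrays, and 62.8% of all probes tested had no overlap in one direction or the other. Of the 3 probes measured on both sides, Tnni2 had a difference of -7.81, Tnnc1 of -6.61 and Tnnt1 of -3.42. The bounds of Tnnc2 (-8.43), Tnnt3 (-6.89) and Tnni1 (-5.45) depend on how bright each probe was in control cultures, so they give no order among the fast and slow genes.

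Tnni3, the troponin I of adult heart, stands apart from its neighbour Tnnt1 and from the rest of the family. On the neuronal arrays it read 67.6, 58.5 and 69.4 in control cells and 66.7, 61.4 and 69.0 in knockdown cells. It was detected on 1 ES array and 1 SNM array of control cells and on no other array, so no change of it can be given in any comparison.

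From the SNM to the neuronal stage the 2 cell types moved in opposite directions. In control cells all 6 detected probes were higher past the call rule, by 3.93 (SE 0.08) for Tnnt1 to 6.81 (SE 0.19) for Tnnc2, with a median of 5.39; 29.4% of 20697 probes met the rule, 14.3% in the higher and 15.1% in the lower direction. In knockdown cells 5 of 6 were lower past the rule and 0 higher, with a median of -2.04, or -1.96 with bounds; 28.6% of 21125 probes met it, 13.8% in the higher and 14.8% in the lower direction. There Tnnc1 was 8.59-fold lower, Tnni2 was 4.87-fold lower, and Tnnc2, Tnnt3 and Tnni1 were at least 8.60-fold, 3.11-fold and 2.52-fold lower. Tnnc2, Tnnt3 and Tnni1 entered this comparison through the knockdown SNM arrays alone, which largely set their direction, so nothing is read from the count. Tnnt1 differed by -0.27 (SE 0.08).

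Set against the ES stage, control neuronal cultures were higher for all 6 detected probes, where 61.1% of 21451 probes met the rule, 27.8% higher and 33.4% lower. Tnni2 was 199.8-fold and Tnnc2 148-fold higher than in control ES cells, and Tnnt3 at least 109-fold. Tnni1 and Tnnt3 entered through the control neuronal arrays alone, so a rise was the only outcome open to them. In knockdown cultures 2 of the 4 probes that could be compared were lower past the rule, where 63.7% of 21132 probes met it, 30% higher and 33.7% lower. These were Tnnc2 (at least 2.09-fold) and Tnnt1 (1.52-fold), and Tnnc1 and Tnni2 differed from their ES level by 0.051 and -0.045 on the log2 scale. Tnnc2 entered through the knockdown ES arrays alone, which largely set its direction. Both calls were lost under some of the other settings, 0 or 1 of the 4 probes being called without background correction.

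The first 3 of the 6 conditions came in the same order for Tnnc1, Tnnc2 and Tnni2. For Tnnc1 it ran, in mean log2 signal with SD (n = 3), from control neuronal at 12.78 ± 0.04 to knockdown SNM at 9.27 ± 0.06, control SNM at 7.91 ± 0.11 and control ES at 6.73 ± 0.18, and ended with knockdown neuronal at 6.17 ± 0.08 and knockdown ES at 6.12 ± 0.04. The last 2 overlapped. For Tnnc2 it ran from control neuronal at 13.30 ± 0.04 to knockdown SNM at 7.97 ± 0.12, control SNM at 6.49 ± 0.20, control ES at 6.09 ± 0.31 and knockdown ES at 5.93 ± 0.32, and ended with knockdown neuronal at 4.74 ± 0.38. The arrays of its control SNM and control ES conditions overlapped, as did those of both ES conditions. For Tnni2 the first 3 places were 13.05 ± 0.03, 7.52 ± 0.08 and 6.40 ± 0.12 in the same conditions, and the other 3 conditions, with means of 5.24 to 5.41, overlapped.

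For Tnnt3 and Tnni1 just 3 conditions had the probe detected on all arrays. Tnnt3 was at 11.63 ± 0.04 in control neuronal, 6.38 ± 0.14 in knockdown SNM and 5.72 ± 0.22 in control SNM cultures, and Tnni1 at 10.20 ± 0.15, 6.08 ± 0.25 and 5.34 ± 0.10. Tnnt1 had an order of its own. It ran from control neuronal at 11.14 ± 0.05 to knockdown ES at 8.33 ± 0.06, control ES at 8.08 ± 0.06, knockdown SNM at 7.99 ± 0.16 and knockdown neuronal at 7.72 ± 0.13, and ended with control SNM at 7.21 ± 0.05, the condition in place 3 for the others. Its control ES and knockdown SNM arrays overlapped.

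**Figure D3:**
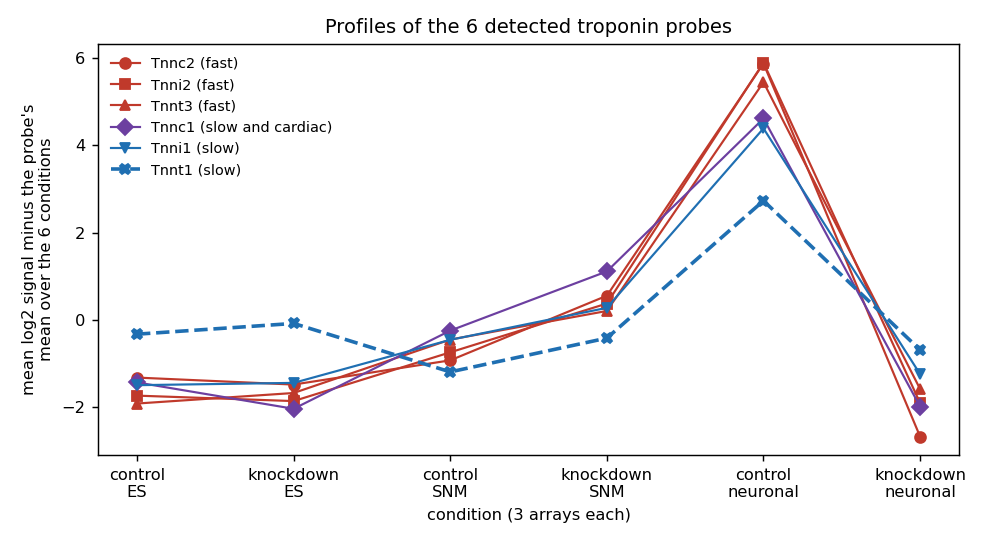
Mean log2 signal (3 arrays) of the 6 detected troponin probes in each condition, each centred on its own mean over the 6 conditions, with fast-fibre genes in red, slow-fibre genes in blue and Tnnc1 in purple. The lines of the other 5 probes run close together, and the dashed line of Tnnt1 has its lowest point in control SNM and spans 3.93 in all.

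Likeness between genes was measured as the root mean square (RMS) distance of these centred profiles over the 6 conditions, against 23171 other detected probes. It is a description only. The profiles include the neuronal values that chose the family, and control neuronal cultures dominate them, at 2.73 (Tnnt1) to 5.90 (Tnni2) above a probe's own mean on the log2 scale. Tnni1 and Tnnt3 were not detected on all arrays in 3 of the 6 conditions, and Tnnc2 in 1, so their distances and places rest partly on background signal. The nearest probe of all to Tnnc2 was that of Tnni2, at 0.40. Tnni2 in turn was nearest to Atp2a1, the calcium pump of fast fibres, at 0.26, with Tnnt3 second at 0.28. Tnnt3 was nearest to Atp2a1 at 0.21 and had Tnni2 second. Of the other genes nearest to Tnnc2, Sln (sarcolipin, a regulator of that pump) lay at 0.49, Acta1 (skeletal actin) at 0.53 and Myh8 (perinatal myosin heavy chain) at 0.56.

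Tnnc1 was nearest to Chrng and Chrna1, subunits of the acetylcholine receptor of muscle, at 0.36 and 0.37, and to Trim72, a membrane repair protein of muscle, at 0.39. Tnni1 was nearest to Trim72 at 0.16, Cox6a2 (a cytochrome oxidase subunit of muscle) at 0.23 and Myh8 at 0.25. Tnnc1, Tnnc2, Tnni1, Tnni2 and Tnnt3 each had 4 other troponin probes among their 100 nearest probes. Tnnt1 had 0, its nearest troponin being Tnni1 in place 1182 at 1.10, and its own nearest probes were those of Ampd1 (AMP deaminase of muscle) at 0.21 and 2 of Chrnb1 (another receptor subunit) at 0.22 and 0.26.

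Other muscle genes were read from 5 lists, a gene with several probes standing by its brightest. Their counts at the SNM stage stand beside 11% of all probes tested called higher and 8.9% lower. There 3 of 5 fast-fibre genes tested rose in knockdown cells and 0 fell, with a median of 0.96. Pvalb (parvalbumin, also a gene of some neurons) rose by 2.56 (SE 0.09, limma adjusted p = 4.32e-12), Atp2a1 by 1.17 (SE 0.12, limma adjusted p = 8.21e-07) and Mylpf (fast myosin light chain) by 0.96 (SE 0.09, limma adjusted p = 2.71e-07). Of 3 slow-fibre genes tested 2 rose and 0 fell, with a median of 0.93 (0.79 with bounds). They were Atp2a2, a calcium pump present in most cells, at 0.94 (SE 0.06, limma adjusted p = 4.18e-09), and Casq2 (calsequestrin of slow fibres and heart), which was at least 1.73-fold higher. Casq2 entered the comparison through the knockdown arrays alone, which largely set its direction. Myl3 differed by -0.41 (limma adjusted p = 0.0114), under the minimum.

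Of 5 heart genes tested at the SNM stage 3 rose in knockdown cells and 0 fell, with a median of 0.86 (0.57 with bounds). Of these 5, 2 were detected on all control arrays. The others entered through the knockdown arrays alone, which largely set their direction, so nothing is read from the count. Ryr2 (a calcium release channel of heart and brain) rose by 1.09 (SE 0.09, limma adjusted p = 8.76e-08). Hand2 (a transcription factor of heart and sympathetic neurons) and Nppa (atrial natriuretic peptide), below detection in control SNM, were at least 1.53-fold and 1.46-fold higher. The bound of Nppa is under the 1.5-fold minimum. Tnni3 was detected on 1 of the 6 SNM arrays.

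Among the partners of troponin on the thin filament, 2 of 8 tested rose at the SNM stage and 0 fell, with a median of 0.03, beside -0.04 over all probes tested. Actc1 (cardiac actin, also the actin of young skeletal muscle) rose by 1.46 (SE 0.09, limma adjusted p = 1.37e-09) and Tpm1 (a tropomyosin made in many cells) by 0.61 (SE 0.06, limma adjusted p = 2.14e-07). Tpm3, next in size, differed by -0.51 (limma adjusted p = 0.000528), under the minimum. Of 8 myogenic factors tested 1 rose and 2 fell, with a median of -0.04. Myog (myogenin) was at least 1.54-fold higher in knockdown SNM, though its other probe tested differed by 0.05. Pax3 was at least 1.46-fold lower, a bound under the 1.5-fold minimum. Each of these was detected on all arrays of 1 cell type alone, which largely set its direction. Eya1 fell by 0.62 (SE 0.11, limma adjusted p = 0.000193), its other probe tested being at -0.22.

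At the ES stage, where 1.17% of all probes tested fell and 0.516% rose, 3 of 6 thin-filament partners tested fell in knockdown cells and 0 rose, with a median of -0.53. These were Actc1 (-0.82, SE 0.09, limma adjusted p = 3.39e-05), Tpm2 (-0.64, SE 0.09, limma adjusted p = 0.000250) and Acta1 (-0.61, SE 0.17, limma adjusted p = 0.0342). Of the other lists, 1 of 2 slow-fibre genes tested fell (Myl3, -1.05, SE 0.12, limma adjusted p = 7.57e-05), and 0 of 3 fast-fibre genes, 0 of 3 heart genes and 0 of 3 myogenic factors passed the call rule. Summed signals of 6 smooth muscle genes, of which 2 were detected in control and 1 in knockdown ES cells, were between 1482 and 1581 on control and between 916 and 1118 on knockdown ES arrays, with Acta2 the brightest of them (-0.96, SE 0.05, limma adjusted p = 9.79e-09). The 8 fibroblast genes, 4 and 3 of them detected, summed to 936 to 1045 and 843 to 992. These sums are of deposited signals and include the background of undetected probes. The 4 fibroblast genes that could be tested had a median difference of -0.45 (-0.35 with bounds), and 0 were called. A second probe of Dcn, dimmer and not used for the list, was called lower at -0.75 (SE 0.08). The part of feeder cells in the ES differences was not tested.

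**Figure D4:**
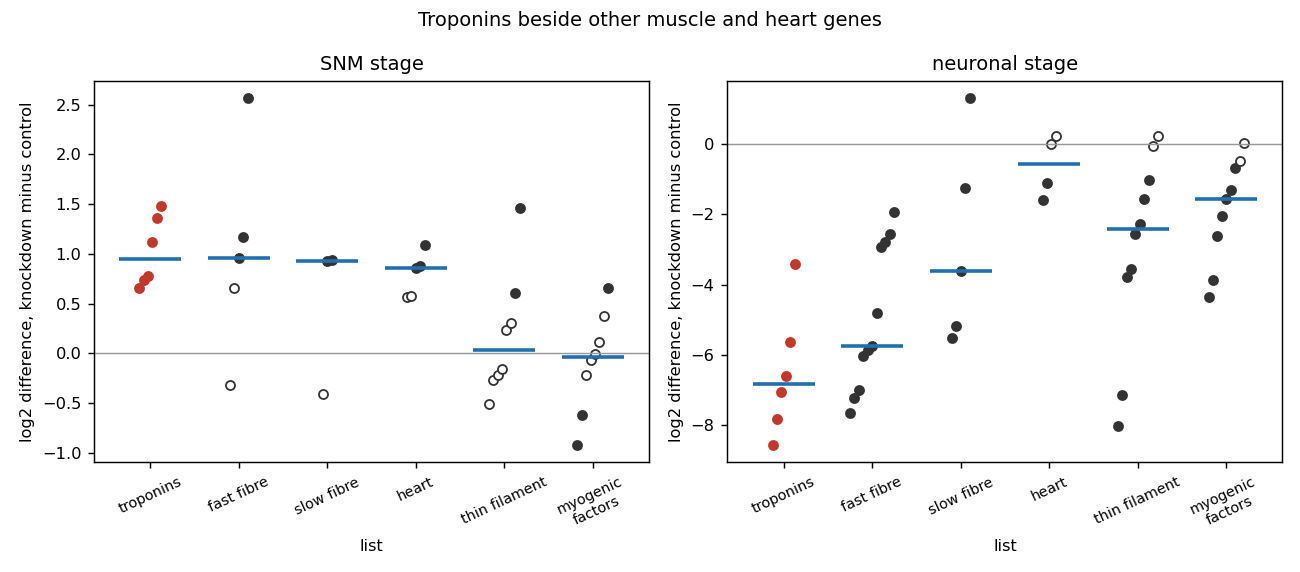
Log2 difference between knockdown and control cells of the tested troponin probes (red) and of the tested genes of 5 lists (black), at the SNM stage (left) and the neuronal stage (right), with filled circles for those past the call rule, blue bars at the medians, and fitted values for probes below detection in one condition. At the SNM stage the medians of the troponins and of the fast-fibre, slow-fibre and heart lists lie between 0.86 and 0.96 and the other 2 near 0. With bounds in place of fitted values the slow-fibre median is 0.79 and the heart median 0.57. At the neuronal stage the troponins have a median of -6.83 and the heart genes -0.57.

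At the neuronal stage, where 13.5% of all probes that could be tested were lower past the call rule and 13.9% higher, all 11 fast-fibre genes were lower in knockdown cells past it, with a median of -5.75 (-5.48 with bounds), the nearest in size to the troponins among the lists. Nothing is read from this count, since 4 of the 11 were detected on all knockdown arrays. The others passed the filter through the control arrays alone and could only be lower. Some genes of the other lists were likewise detected on all arrays of 1 cell type alone. Myl1 and Mylpf, the fast myosin light chains, differed by -7.64 and -7.22, and Atp2a1 by -7.01. Of 10 thin-filament partners 8 were lower, with a median of -2.43, led by Acta1 (-8.03), Actc1 (-7.14) and Tmod4 (at least 12.0-fold lower). Of 5 slow-fibre genes 4 were lower and 1, Myl3, was at least 2.45-fold higher, with a median of -3.63 (-3.10 with bounds). Myoz2 and Casq2 were at least 38.2-fold and 28.8-fold lower, while Myh7, the slow myosin heavy chain, was detected on no neuronal array.

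Heart genes were few at the neuronal stage. Of 12 genes 4 could be tested, and 2 were lower, with a median of -0.57 (-0.46 with bounds), Ryr2 (-1.61) and Myh6 (atrial and cardiac myosin heavy chain) at least 1.87-fold. Nkx2-5, a cardiac transcription factor, was detected in both cell types and differed by -0.01. Of 9 myogenic factors 7 were lower and 0 higher, with a median of -1.57, including Myog (at least 17.8-fold), Myf6 (at least 11.3-fold) and Mef2c (-2.61).

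Markers of other cells in these cultures moved as well, and their part in the troponin results was not tested. All sums given here are of deposited signals, without normalization, and include the background of undetected probes. Summed signals of 6 smooth muscle genes were between 979 and 987 on control SNM arrays and between 2290 and 2616 on knockdown SNM arrays. Of the 6 genes 2 were detected on all knockdown arrays, and Myh11, Cnn1 and Lmod1 were below detection on some or all arrays of every condition. The higher sum was carried by 1 gene, Acta2 (smooth muscle actin, also made in young striated muscle and myofibroblasts), at 9.15 in control and 11.04 in knockdown SNM in mean log2 signal. Actg2, the other gene tested, was at 4.74 and 4.89 and was not called. At the neuronal stage the sums, again mostly Acta2 (13.73 and 12.72), were between 11963 and 13668 in control and between 6496 and 7038 in knockdown cultures. The 8 fibroblast genes, all detected at both later stages, summed to 7401 to 7806 in control SNM and 7777 to 10443 in knockdown SNM, where 3 of the 8 were called higher and 0 lower. At the neuronal stage they summed to 23265 to 26331 in control and 12280 to 16439 in knockdown cultures, and 7 of the 8 were lower past the call rule.

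The cultures labelled as neuronal were checked against neuron markers. Of 5 neuron genes with a probe, 4 were detected in control and 3 in knockdown neuronal cultures, and their summed signal was between 5851 and 7199 in control and between 1573 and 1682 in knockdown cultures. Of the 4 that could be tested 3 were lower past the call rule, with Stmn2, the brightest, at 12.01 in control and 8.93 in knockdown cultures in mean log2 signal. Stmn2 was already at 10.20 in control and 10.25 in knockdown ES cells. In ES cells the sum was between 1438 and 1542 in control and between 1425 and 1821 in knockdown cultures, so neither the sum nor Stmn2 measures neurons alone. Snap25 was detected on all arrays of no condition, and the same was true of Th and Slc6a3, the defining genes of dopaminergic neurons. The 4 dopaminergic genes summed to 857 to 1122 in control and 2452 to 2804 in knockdown neuronal cultures, and 1 gene carried this sum. It was Ddc, the decarboxylase of dopamine and serotonin synthesis, also present in other tissues, at 9.49 in control and 11.20 in knockdown cultures in mean log2 signal, and it alone of the 2 that could be tested passed the call rule. Neural progenitor genes, 5 of 6 detected in both, summed to 2757 to 3358 in control and 3087 to 4264 in knockdown neuronal cultures. The higher sum was that of Sox2 (9.57 and 10.70), while 3 of the 5 that could be tested, Nes (-1.97), Hes5 (-0.85) and Pax6 (-0.62), were lower, and the median difference was -0.62. The 5 ES cell genes, all detected and Sox2 among them, summed to 3369 to 4102 and 2431 to 3082, with 4 lower and 1 higher past the call rule.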

How the data were processed

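Gene expression was measured on 18 arrays (Illumina MouseWG-6 v2) and grouped by the sample labels into 6 conditions of 3 arrays, 2 cell types at each of 3 stages. The authors deposited for each probe the signal intensity averaged over beads, without background subtraction or normalization, and a detection p-value. A second deposited table gave the probe symbols, and its 72 per-array columns, tied to no sample, were not used. The build of the probe annotation is not given in the sources used here.

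Signals were corrected and normalized with neqc (offset 16, background from the detection p-values) of limma 3.58.1 in R 4.3.3. All arrays entered 1 limma model of the 6 conditions. Probes entered a comparison if every array of 1 or more of its conditions had detected them (detection p-value below 0.05). The call rule was a two-sided p-value below 0.05 after Benjamini-Hochberg adjustment over all probes tested, together with a change of at least 1.5-fold. Where a condition had fewer than 3 detecting arrays, a fold is a bound against, per array, the lowest signal detected or the probe's own where higher. The call still used the fitted difference, and the detection filter then largely set its direction. The number of arrays limits the precision. An exact permutation test of 3 against 3 arrays cannot go below p = 0.1 and was not used. On simulated data, 95% of 2-fold changes between knockdown and control cells were recovered for the ES stage and 96% for the SNM stage. The simulation added independent noise of the array SD to normalised values. It left out the spread between cultures, shared deviations of arrays, the background correction and changes under 2-fold.

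The members, the 5 muscle and heart lists and the marker lists were chosen with earlier results of these data known. Named are all member probes, Hprt1, the 3 list genes of largest change in a comparison, and the 3 probes nearest to each member; remarks on further list genes (Myh7, Nkx2-5) and markers were added after their values were seen. Array numbers come from the sample titles; the description field of every sample gives the same replicate number, 3, and so neither bears out nor contradicts them. For knockdown and control cells at the SNM stage, arrays of equal number deviated together, with correlations of 0.49, 0.11 and 0.49 across probes, and so did the SNM and neuronal (0.52, 0.14 and 0.51) and the ES and neuronal (0.41, 0.11 and 0.34) arrays of knockdown cells. Alternatives were 3 scalings without background correction, a larger neqc offset, other detection and fold limits, the array number as a block, the methods' unpaired test, a fit to the conditions compared alone, and each array left out in turn.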

Additional observations from a re-analysis of the deposited data

Results flagged for a closer look

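The effect of the knockdown on troponin signals was not the same at every stage. Set at the SNM stage against the ES stage, it was higher by 1.96 on the log2 scale for Tnnc1, 1.64 for Tnnc2, 1.24 for Tnni2, 0.68 for Tnni1, 0.53 for Tnnt1 and 0.41 for Tnnt3, with limma adjusted p-values between 2.76e-09 and 0.0308. The differences of Tnnt1 and Tnnt3 were under the 1.5-fold minimum and were not called, and over the alternatives their adjusted p-values reached 0.0532 and 0.277, with a lowest difference of 0.34 and 0.13. For Tnni1 the lowest difference was 0.32, and its limma adjusted p reached 0.0521. Tnni1 and Tnnt3 were detected on no ES array, so their ES values are background and their differences rest on the SNM stage. Tnnc1 was below control in knockdown ES cells and above control in knockdown SNM.

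From SNM to neurons, the effect turned from higher on every array to lower on every array for 6 of the 7 probes. The effect at the neuronal stage minus that at the SNM stage was -10.05 for Tnnc2, -8.93 for Tnni2, -7.97 for Tnnc1, -7.70 for Tnnt3, -6.38 for Tnni1 and -4.20 for Tnnt1. This difference was not tested, since the neuronal values were known when the family was chosen, and the values of Tnnc2, Tnnt3 and Tnni1 include signals below detection. Those probes entered the neuronal comparison through the control arrays alone, which largely set their direction.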

How the results depend on the processing

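Of 174 counts of called troponin probes under the alternatives, 155 stayed within 1.5 times the reported count and 19 were lower. The calls of 6 troponin probes in the neuronal comparison of the cell types and of 5 between ES and SNM in knockdown cells kept their number throughout. At the ES stage the count of 1 (Tnnc1) became 0 with quantile or 75th percentile scaling without background correction, with neither, with the larger offset, with a 2-fold minimum and with the methods' test after Benjamini-Hochberg adjustment, and was 0 to 1 with an array left out (0 without control array 2). At the SNM stage a 2-fold minimum left 3 of 6, and 5 to 6 were called with an array left out. Tnni1 and Tnnt3 lost their calls there with each scaling without background correction and with the larger offset. Those losses lie within 1.5 times the reported count and so are among the 155. For the difference between the ES and SNM effects the count of 4 ran from 3 to 5 over the alternatives. In control cells, the 5 calls between ES and SNM became 3 with quantile scaling (2 higher, 1 lower), 2 with 75th percentile scaling (1 higher, 1 lower), and 3 without scaling or with a 2-fold minimum (3 higher, 0 lower). From the ES to the neuronal stage in knockdown cells the 2 calls became 0 with quantile scaling or none, 1 with 75th percentile scaling, the larger offset or a 2-fold minimum, and 1 to 2 with an array left out (1 without knockdown ES array 1 or knockdown neuronal array 3). The value of Tnni2 at the ES stage turned from -0.13 to 0.045 without control array 2, neither being called, and ran from -0.24 to 0.045 over the arrays left out. Of 500 values of single probes in tested comparisons, 463 kept their direction and side of the threshold and 1 changed direction, and where the cause is not the setting's own higher limit it was not tested. Of 476 values in the comparisons given as description, 378 stayed within the array SD of the probe and 98 moved further.

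With array number as a replicate block, the pairing changed no call of a troponin probe, and the counts were 1, 6 and 6 for knockdown against control cells at the 3 stages. Counts over all probes fell by over 1.5 times in 32 of 174 alternatives. Without background correction they were 48 to 57 at the ES stage (310 reported), 2326 to 2452 at the SNM stage (4127), 3690 to 3760 at the neuronal stage (5732), 2564 to 2946 for the difference between the ES and SNM effects (4721), 3781 to 4006 from SNM to neuronal in control (6088) and 3820 to 3914 in knockdown cells (6051), and, unscaled, 6717 from ES to SNM in control cells (10167). With the larger offset they were 81, 2561 and 2848 for the ES stage, the SNM stage and their difference. With a 2-fold minimum they were 25, 1267, 2636 and 1491 for the 3 stages and the difference, 5659 and 7560 (12292 reported) from ES to SNM, 2485 and 2649 from SNM to neuronal, and 8453 (13113) from ES to neuronal in control cells. The methods' test gave 78 at the ES stage after adjustment. Unscaled values moved the median of all probes by 0.12 to 0.19 from the ES stage to the later ones and the split to 4643 higher and 2074 lower from ES to SNM in control cells, 5075 and 3504 in knockdown cells, 5497 and 3737 from ES to neuronal in control cells, and 20 and 28 between ES cell types. A 2-fold minimum gave 898 higher and 369 lower at the SNM stage, 1506 and 979 from SNM to neuronal in control cells, and 1075 and 416 for the difference of effects. Signals near background limit Tnni1, Tnnt3 and Tnni3 most.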
